A study of Homo sapiens with 3 samples.

Results

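Macroautophagy is the pathway by which a cell encloses part of its cytoplasm in a double membrane, the autophagosome, and delivers it to the lysosome. The ULK kinase complex starts the process, the class III phosphatidylinositol 3-kinase (PI3K) complex built around BECN1 marks the growing membrane with a lipid, and ATG9, ATG2 and WIPI proteins supply and recognise that membrane. Ubiquitin-like conjugation enzymes then attach ATG8 proteins (LC3 and GABARAP) to phosphatidylethanolamine, and receptors such as SQSTM1 (p62) link cargo to the lipidated ATG8. Much of this pathway is controlled by phosphorylation, lipidation and turnover of the proteins, none of which a count of RNA measures.

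The 39 genes described here are the core genes of these steps, taken by gene symbol from the 58735 genes of the count tables. They comprise 5 genes of the ULK complex, 7 of the PI3K complex, 5 of the ATG9, ATG2 and WIPI step, 10 conjugation enzymes, 5 ATG8 proteins and 7 receptors. The 3 RNA-seq libraries come from A549, an established line of human lung adenocarcinoma cells, grown in F12K medium with serum. Control-sh is the control, and DDX24-sh1 and DDX24-sh2 carry a short hairpin RNA (shRNA) each against DDX24, an RNA helicase. Per the methods of the study, all lines were made stable with lentiviral pLKO.1 vectors under puromycin, so every library comes from transduced, selected cells. The control is named as empty vector in the methods and as a control shRNA elsewhere, and which of them this library holds is not known. Each condition has 1 library, so no difference has a replicate check and no p-value is given.

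The libraries held 17218884 counts (Control-sh), 18337471 (DDX24-sh1) and 17847190 (DDX24-sh2), and mitochondrial genes took 4.36%, 5.13% and 7.04% of them. DDX24 had 2010, 637 and 765 counts, that is 29.6% and 36.0% of the control level in the shRNA libraries. Of 5 epithelial markers, KRT8 and KRT18 were abundant (at least 22548 counts in every library), while EPCAM was low (32, 29 and 29 counts). KRT19 was higher in both shRNA libraries (1001, 2251 and 2728 counts) and CDH1 was lower (538, 358 and 261 counts). Of 4 lung lineage markers, NKX2-1 had 0 counts in all 3 libraries, SFTPB at most 3 and SFTPC at most 4, while NAPSA was low but present (23, 28 and 36 counts). The blood marker PTPRC had 0 counts throughout, and the endothelial markers PECAM1 and CDH5 had at most 12. Of the fibroblast markers, COL1A1 had 139, 174 and 143 counts, COL1A2 at most 3, and PDGFRA 10, 25 and 22. PDGFRA was higher by count in both shRNA libraries, but its DDX24-sh2 interval (defined below) held 0. The part of these differences in the values below was not tested. In the FPKM tables the names of the shRNA libraries are exchanged relative to the counts, and the names used here are those on the counts; which of the namings is right is not known, so every statement that sets DDX24-sh1 against DDX24-sh2 rests on the count labels.

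Ratios are differences in log2 CPM (counts scaled to a common library total) after TMM scaling, with Control-sh as the denominator unless another is named. The interval beside a ratio is an exact 95% binomial (Clopper-Pearson) interval from the 2 counts. It covers counting error only: differences between cultures are outside it, and reads that carry no molecular identifier may be copies of the same molecule. Both ratios of a gene share the single control library, so a control count that is off by chance moves both the same way. RNA per cell and number of cells cannot be told apart in bulk RNA, so every value is a share of the library's RNA.

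Sequence near the starts of 4 members is shown first, because BECN1 is the subunit that names the PI3K complex, ULK1 encodes the initiating kinase, and ATG13 and CALCOCO2 were below the control in both shRNA libraries by their intervals. The bases are RefSeq (GRCh38.p14), from up to 250 bases before the RefSeq start, 5′ to 3′ on the strand of the gene. Bases inside the GENCODE 29 gene body were left out of the last 2. Capitals mark matches, on either strand, to CACGTG (bound by TFEB-family factors), TGACNNNGC (bound by NRF2), TTGCATCA (bound by ATF4 with a C/EBP partner) or an NF-kB-like pattern of GGG, any 5 bases, then CC. The windows are chr17:42823880-42824129 on the minus strand (BECN1), chr12:131894372-131894621 (ULK1), chr11:46617303-46617526 (ATG13) and chr17:48830785-48830987 (CALCOCO2), the last 3 on the plus strand.
BECN1: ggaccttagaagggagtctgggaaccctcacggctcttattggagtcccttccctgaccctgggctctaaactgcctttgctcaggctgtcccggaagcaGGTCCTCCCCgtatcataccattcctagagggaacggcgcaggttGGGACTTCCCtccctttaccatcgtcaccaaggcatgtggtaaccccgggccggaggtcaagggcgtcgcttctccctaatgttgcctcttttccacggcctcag
ULK1: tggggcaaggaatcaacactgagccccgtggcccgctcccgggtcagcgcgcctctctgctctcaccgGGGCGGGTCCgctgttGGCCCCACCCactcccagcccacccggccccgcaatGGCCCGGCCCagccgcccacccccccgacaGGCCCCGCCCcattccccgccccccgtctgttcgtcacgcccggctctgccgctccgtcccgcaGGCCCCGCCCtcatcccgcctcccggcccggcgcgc
ATG13: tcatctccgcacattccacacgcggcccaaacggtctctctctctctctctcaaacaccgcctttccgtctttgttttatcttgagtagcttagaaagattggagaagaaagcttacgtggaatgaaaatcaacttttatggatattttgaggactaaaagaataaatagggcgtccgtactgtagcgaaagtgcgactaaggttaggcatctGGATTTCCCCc
CALCOCO2: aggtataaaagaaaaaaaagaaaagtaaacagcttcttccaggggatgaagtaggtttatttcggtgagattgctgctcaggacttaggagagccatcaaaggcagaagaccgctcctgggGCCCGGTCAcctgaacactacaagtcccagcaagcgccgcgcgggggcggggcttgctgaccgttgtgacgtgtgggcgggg

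In BECN1 the 2 NF-kB-like matches begin 150 and 105 bases before the RefSeq start, but this window is no outer promoter for every transcript. Of 11 coding BECN1 transcripts in GENCODE 29, 6 begin upstream of it, by 122 to 9221 bases, and the window lies in their introns, and the microRNA gene MIR6781 overlaps it. In the printed bases, ULK1 held 5 NF-kB-like matches in a window of 78.0% G and C, and ATG13 held 1 in a window of 44.2%. The printed bases of CALCOCO2 held 1 match to TGACNNNGC. The shares and counts of windows that follow use full windows, with no bases left out. Counted that way, CALCOCO2 also held the NF-kB-like pattern, outside the bases printed here. The NF-kB-like pattern is loose: 54.4% of all 35116 promoter windows in the table held it. It was in 31 of the 42 windows of the 34 members with an entry. CACGTG was in 6.34% of all windows and in those of 4 members (ATG14, ATG3, BNIP3 and NRBF2). TGACNNNGC was in 10.9% of all windows and in 3 members (ATG101, CALCOCO2 and MAP1LC3B), and TTGCATCA was in 0.772% of all windows and in no member. UVRAG, ATG4D, MAP1LC3A, RB1CC1 and BNIP3L had no entry. A match describes letters in a window and is not a binding site. Of the 42 windows of members, 19 lay wholly inside the GENCODE 29 gene body.

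All 39 members were detected and passed a mean of 1 CPM, as did 13984 genes in all, and 38 passed a mean of 10 CPM, the exception being GABARAP. In DDX24-sh1 none of the 39 was at least 1.5-fold from the control in either direction, against 7.59% of all 13984 genes higher and 8.25% lower. In the DDX24-sh2 library, GABARAP was at least 1.5-fold higher, where the share of all genes was 8.6%, and UVRAG, ATG101 and GABARAPL1 were at least 1.5-fold lower, where it was 9.51%. No member was past 1.5-fold in both shRNA libraries in the same direction, against 4.23% of all genes higher and 4.72% lower. With the mean limit raised to 10 CPM those shares were 1.66% and 3.84%, again with no member. All other members lay within 1.5-fold of Control-sh in both libraries.

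Smaller displacements were counted by the intervals. In DDX24-sh1 the interval lay above 0 for 5 members (23.6% of all genes) and below 0 for 17 (29.5% of all genes). In DDX24-sh2 it lay above 0 for 3 members (23.6%) and below 0 for 22 (30.8%). Both intervals lay below 0 for 15 of the 39 members, where 20.6% of all genes did so, and both lay above 0 for 1 member, PIK3C3, where 14.0% of all genes did. With the filter at 10 CPM the counts were again 15 and 1, of 38 members, against 25.8% and 16.1% of all genes. Shares for a single library, or for DDX24-sh2 over DDX24-sh1, were taken only at 1 CPM. They include genes with fewer counts and thus wider intervals than most members. Point ratios were below 0 for 26 members in DDX24-sh1 (52.6% of all genes) and for 29 in DDX24-sh2 (53.0%). They were below 0 in both libraries for 22 members (40.2%) and above 0 in both for 6 (34.6%).

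The median log2 ratio of the members came to -0.08 for DDX24-sh1 and -0.19 for DDX24-sh2, beside -0.02 and -0.03 for all genes. Medians of the groups ran from -0.19 (ULK complex) to 0.07 (ATG8 proteins) in DDX24-sh1, and from -0.33 (ATG9, ATG2 and WIPI) to -0.06 (ATG8 proteins) in DDX24-sh2. The last value rests on GABARAP, with 19 and 33 counts, and was -0.26 without it, which leaves the PI3K complex highest at -0.10. In DDX24-sh2 the median of every group was below 0. Between the shRNA libraries themselves, the interval of DDX24-sh2 over DDX24-sh1 lay below 0 for 18 members (23.8% of all genes) and above 0 for 6 (21.0% of all genes). These are counts over genes of the same 3 libraries, not replicates.

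**Figure D1:**
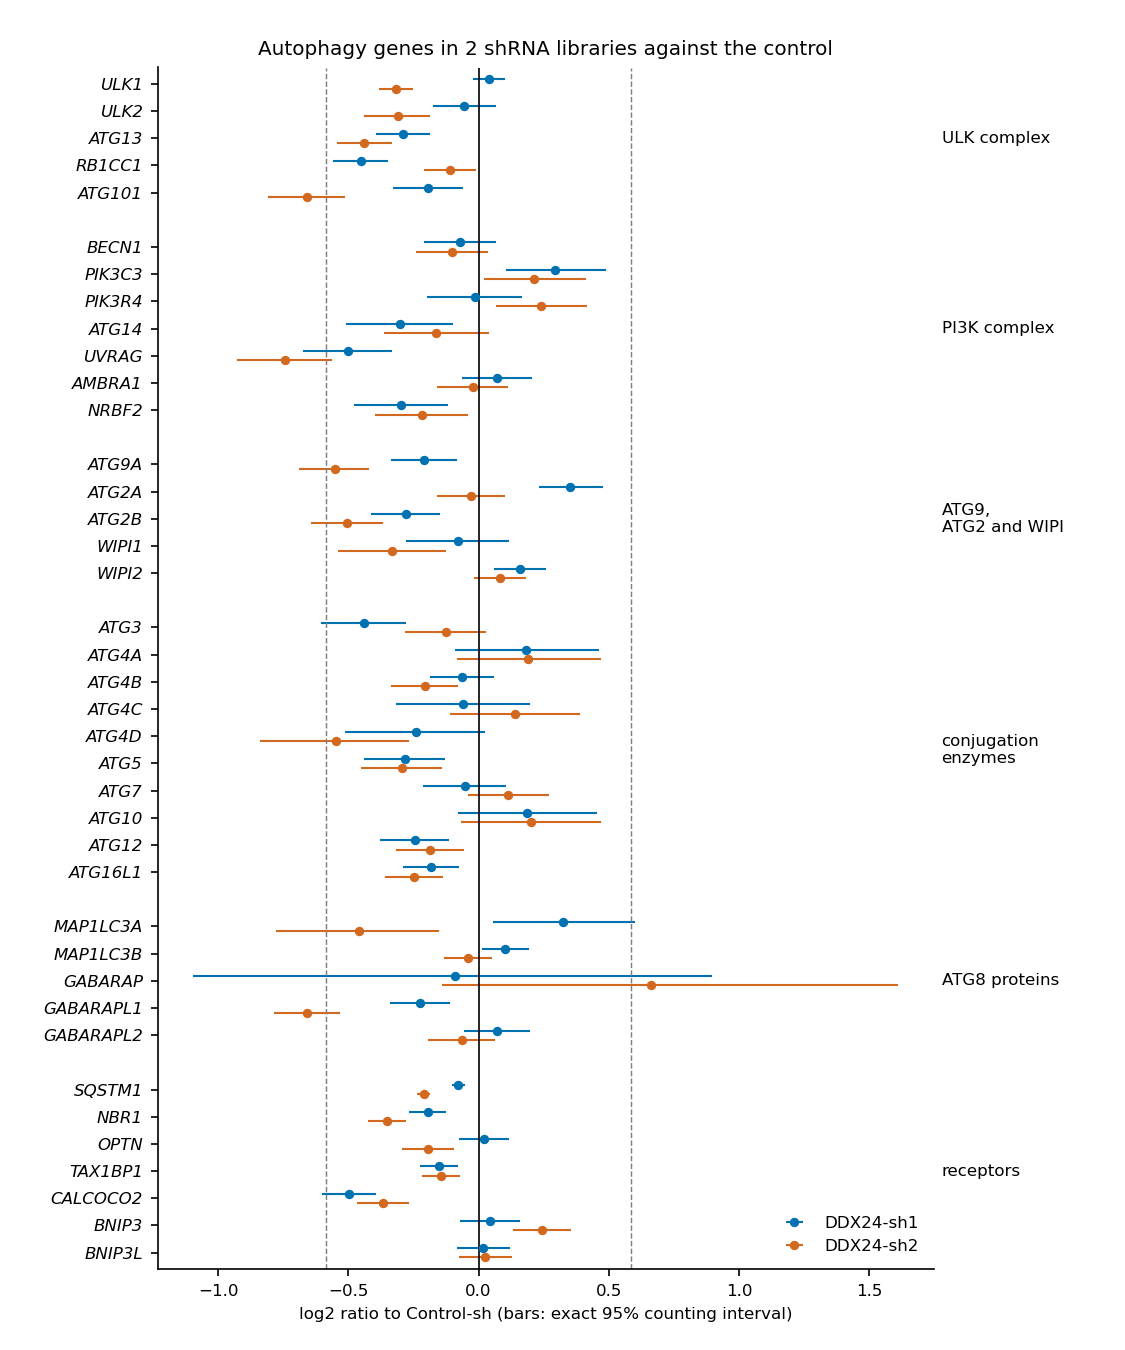
Log2 ratio of each of the 39 genes to Control-sh in DDX24-sh1 (blue) and DDX24-sh2 (orange), grouped by step of the pathway; bars are exact 95% counting intervals from 1 library each and dashed lines mark 1.5-fold. All DDX24-sh1 points lie within the dashed lines, while GABARAP lies to the right of them and ATG101, UVRAG and GABARAPL1 to the left in DDX24-sh2.

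The ULK complex consists of the kinases ULK1 and ULK2 with the subunits ATG13, RB1CC1 (FIP200) and ATG101. All 5 genes were below the control in DDX24-sh2 by their intervals, where 30.8% of all genes were. Of them, 3 were also below it in DDX24-sh1, and 20.6% of all genes were below in both. ATG101, which stabilises ATG13 (chr12:52069246-52077494), had 938, 878 and 627 counts in the control, sh1 and sh2 libraries, an order kept from here on. Its ratio was -0.19 (-0.33 to -0.06) in DDX24-sh1 and -0.66 (-0.81 to -0.51) in DDX24-sh2, or 87.4% and 63.3% of the control. The DDX24-sh2 library was thus the lowest, and the shRNA libraries differed from each other by -0.47 (-0.62 to -0.32).

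ATG13, the adaptor subunit that TORC1 phosphorylates, had 1670, 1464 and 1303 counts. Its ratios were -0.29 (-0.39 to -0.19) and -0.44 (-0.54 to -0.33), lower in both. RB1CC1, the scaffold of the complex, had 1679, 1315 and 1646 counts, with ratios of -0.45 (-0.56 to -0.35) in DDX24-sh1 and -0.11 (-0.21 to -0.01) in DDX24-sh2. RB1CC1 was the only one of the 5 that was lower in DDX24-sh1 than in DDX24-sh2. ULK1 itself had 4133, 4558 and 3507 counts, and its ratio was 0.04 (-0.02 to 0.10) in DDX24-sh1 and -0.32 (-0.38 to -0.25) in DDX24-sh2. ULK2, with 1110, 1145 and 946 counts, gave -0.05 (-0.18 to 0.07) and -0.31 (-0.44 to -0.18). For both kinases the DDX24-sh1 interval held 0 and the DDX24-sh2 interval did not. Per kilobase of exon, ULK1 was the most abundant gene of the complex in every library, at 31.8, 32.8 and 25.5 CPM per kilobase, and ULK2 the least abundant, at 6.61, 6.36 and 5.32.

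The PI3K complex joins the lipid kinase PIK3C3 (VPS34) and its regulatory subunit PIK3R4 (VPS15) to BECN1, with ATG14 or UVRAG as alternative partners and AMBRA1 and NRBF2 as regulators. BECN1 (chr17:42810134-42833350, minus strand) had 862, 879 and 850 counts. Its ratio was -0.07 (-0.21 to 0.07) in DDX24-sh1 and -0.10 (-0.24 to 0.04) in DDX24-sh2. Both intervals held 0, and neither reached above 0.07 on the log2 scale. The shRNA libraries were 95.2% and 93.3% of the control and differed from each other by -0.03 (-0.17 to 0.11). Exons of BECN1 share bases with 2 genes on the opposite strand, 795 with CNTD1 (2, 4 and 15 counts) and 300 with PSME3 (3862, 4705 and 5190 counts), and whether the counting used strand is not given in the sources used here.

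The catalytic and regulatory kinases lay at or above the control. PIK3C3 (chr18:41955206-42087830) had 395, 520 and 485 counts, with ratios of 0.30 (0.11 to 0.49) and 0.21 (0.02 to 0.41). It was the only member whose intervals lay above 0 in both libraries. PIK3R4 had 481, 510 and 601 counts, and its ratio was -0.02 (-0.20 to 0.17) in DDX24-sh1 and 0.24 (0.07 to 0.42) in DDX24-sh2, so only the second library stood above the control.

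UVRAG, the partner of BECN1 in endosome trafficking and autophagosome maturation (chr11:75815167-76143195), had 645, 488 and 407 counts. Its ratios of -0.50 (-0.67 to -0.33) in DDX24-sh1 and -0.74 (-0.93 to -0.56) in DDX24-sh2 were the lowest of all 39 members in either library, with CALCOCO2 also at -0.50 in DDX24-sh1. UVRAG was thus at 70.7% and 59.8% of the control. ATG14, which directs the complex to the site of autophagosome formation, had 419, 364 and 396 counts, with ratios of -0.30 (-0.51 to -0.10) and -0.16 (-0.36 to 0.04). NRBF2, which binds the ATG14 form of the complex, had 544, 474 and 495 counts, with ratios of -0.30 (-0.48 to -0.12) and -0.22 (-0.40 to -0.04). UVRAG and NRBF2 were thus lower in both libraries by their intervals and ATG14 only in DDX24-sh1. NRBF2 has processed pseudogene copies (NRBF2P3 and NRBF2P4, at most 3 counts), so its reads could be split. AMBRA1, which links BECN1 to ubiquitin signalling, had 856, 963 and 891 counts and ratios of 0.07 and -0.02, with both intervals holding 0. The summed counts of the 7 genes gave ratios of -0.10 (-0.16 to -0.04) and -0.11 (-0.17 to -0.05).

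ATG9A is the transmembrane scramblase that seeds the membrane, ATG2A and ATG2B transfer lipid into it, and WIPI1 and WIPI2 bind the phosphoinositide made by PIK3C3. ATG9A had 1070, 992 and 771 counts, with ratios of -0.21 (-0.34 to -0.08) and -0.55 (-0.69 to -0.42). ATG2B had 1005, 887 and 749 counts, with ratios of -0.28 (-0.41 to -0.15) and -0.50 (-0.64 to -0.37). Both were lower in the shRNA libraries and lowest in DDX24-sh2. ATG9A shares 38.8% of its merged exon length with AC068946.2 on the same strand, a gene with 0, 2 and 2 counts.

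The ATG2 paralogues differed from each other. ATG2A had 942, 1290 and 977 counts, and its ratio was 0.35 (0.23 to 0.48) in DDX24-sh1, the highest of the 39 members there, and -0.03 (-0.16 to 0.10) in DDX24-sh2. WIPI2, which recruits ATG16L1, had 1527, 1827 and 1709 counts and ratios of 0.16 (0.06 to 0.26) and 0.08 (-0.02 to 0.18). WIPI1 had 419, 425 and 352 counts and ratios of -0.08 (-0.28 to 0.12) and -0.33 (-0.54 to -0.12). Of the 5 genes of this step, 4 were lower in DDX24-sh2 than in DDX24-sh1 by the interval between them (23.8% of all genes). The exception was WIPI2 at -0.08 (-0.17 to 0.02).

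The conjugation enzymes form a pair of linked cascades: ATG7 activates, ATG10 and ATG3 transfer, ATG5, ATG12 and ATG16L1 assemble the complex that directs ATG8 to the membrane, and the ATG4 proteases prime ATG8 and remove it. All 3 genes of the ATG12, ATG5 and ATG16L1 complex were lower in both shRNA libraries by their intervals, where 20.6% of all genes were. ATG5 had 735, 647 and 634 counts, with ratios of -0.28 (-0.44 to -0.13) and -0.29 (-0.45 to -0.14). ATG12 had 981, 887 and 912 counts, with ratios of -0.24 (-0.38 to -0.11) and -0.19 (-0.32 to -0.05). ATG16L1 had 1422, 1343 and 1267 counts, with ratios of -0.18 (-0.29 to -0.07) and -0.25 (-0.36 to -0.14). For these 3 genes the shRNA libraries did not differ from each other beyond counting error, with intervals of -0.17 to 0.15 for ATG5, -0.08 to 0.19 for ATG12 and -0.18 to 0.05 for ATG16L1. A stretch of ATG12 is 96.2% identical over 419 bases to the pseudogene AC025198.1 (21, 22 and 15 counts).

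ATG3, the enzyme that places ATG8 on the lipid, had 699, 552 and 677 counts. It was at -0.44 (-0.60 to -0.28) in DDX24-sh1 and at -0.13 (-0.28 to 0.03) in DDX24-sh2, and the shRNA libraries differed by 0.31 (0.15 to 0.48). ATG7 had 648, 669 and 742 counts and ratios of -0.05 and 0.11, both with 0 in the interval. ATG10 had 213, 260 and 259 counts and ratios of 0.19 and 0.20, also with 0 in both intervals. On the opposite strand, ATG10 shares 374 exon bases with RPS23 (2152, 2627 and 2289 counts), and ATG7 shares 1596 with VGLL4 (547, 613 and 503 counts). Among the proteases, ATG4B, the most active of them on LC3, had 1056, 1083 and 967 counts and ratios of -0.06 (-0.19 to 0.06) and -0.21 (-0.34 to -0.08). ATG4D had 244, 221 and 176 counts and ratios of -0.24 (-0.51 to 0.03) and -0.55 (-0.84 to -0.27). ATG4B and ATG4D lay below the control by their intervals in DDX24-sh2 alone. ATG4D shares 341 exon bases with KRI1 on the opposite strand (485, 361 and 396 counts). ATG4A (201, 245 and 243 counts) had ratios of 0.18 and 0.19, ATG4C (248, 255 and 289 counts) of -0.06 and 0.14, and all 4 intervals held 0. Fewer counts widen these intervals, and those of ATG4A span -0.09 to 0.46 and -0.08 to 0.47.

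The ATG8 proteins are the LC3 and GABARAP families that coat the autophagosome and bind receptors. GABARAPL1 (chr12:10212458-10223130) had 1277, 1171 and 855 counts, with ratios of -0.22 (-0.34 to -0.11) in DDX24-sh1 and -0.66 (-0.79 to -0.53) in DDX24-sh2, or 85.6% and 63.4% of the control. It was the only ATG8 gene with both intervals below 0. MAP1LC3A (chr20:34546854-34560345) had 198, 266 and 152 counts, with ratios of 0.32 (0.06 to 0.60) in DDX24-sh1 and -0.46 (-0.78 to -0.15) in DDX24-sh2. The shRNA libraries lay on opposite sides of the control for this gene and differed by -0.78 (-1.09 to -0.50).

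MAP1LC3B, the LC3 gene used most as an autophagosome marker, had 1889, 2175 and 1941 counts, with ratios of 0.10 (0.01 to 0.19) and -0.04 (-0.13 to 0.05). Its transcript is 97.3% identical over 601 bases to MAP1LC3B2 (111, 138 and 101 counts), so reads could be split between them, and how the counting treated reads with several matches is not given in the sources used here. GABARAPL2 had 981, 1104 and 992 counts and ratios of 0.07 (-0.05 to 0.20) and -0.06 (-0.19 to 0.06). MAP1LC3B and GABARAPL2 thus lay between 95.6% and 107% of the control in both libraries. GABARAP had 19, 19 and 33 counts, and its ratio was -0.09 (-1.10 to 0.90) in DDX24-sh1 and 0.66 (-0.14 to 1.61) in DDX24-sh2, both intervals holding 0. Its level per kilobase, 0.491 CPM per kilobase in Control-sh, was far below the 18.9 of GABARAPL2. GABARAP shares 691 bases of exon, 30.5% of its merged exon length, on the same strand with AC120057.2, a gene with 0 counts in all 3 libraries, and 571 bases on the opposite strand with AC120057.3 (4, 7 and 11 counts). The part of these overlaps in the low count was not tested.

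**Figure D2:**
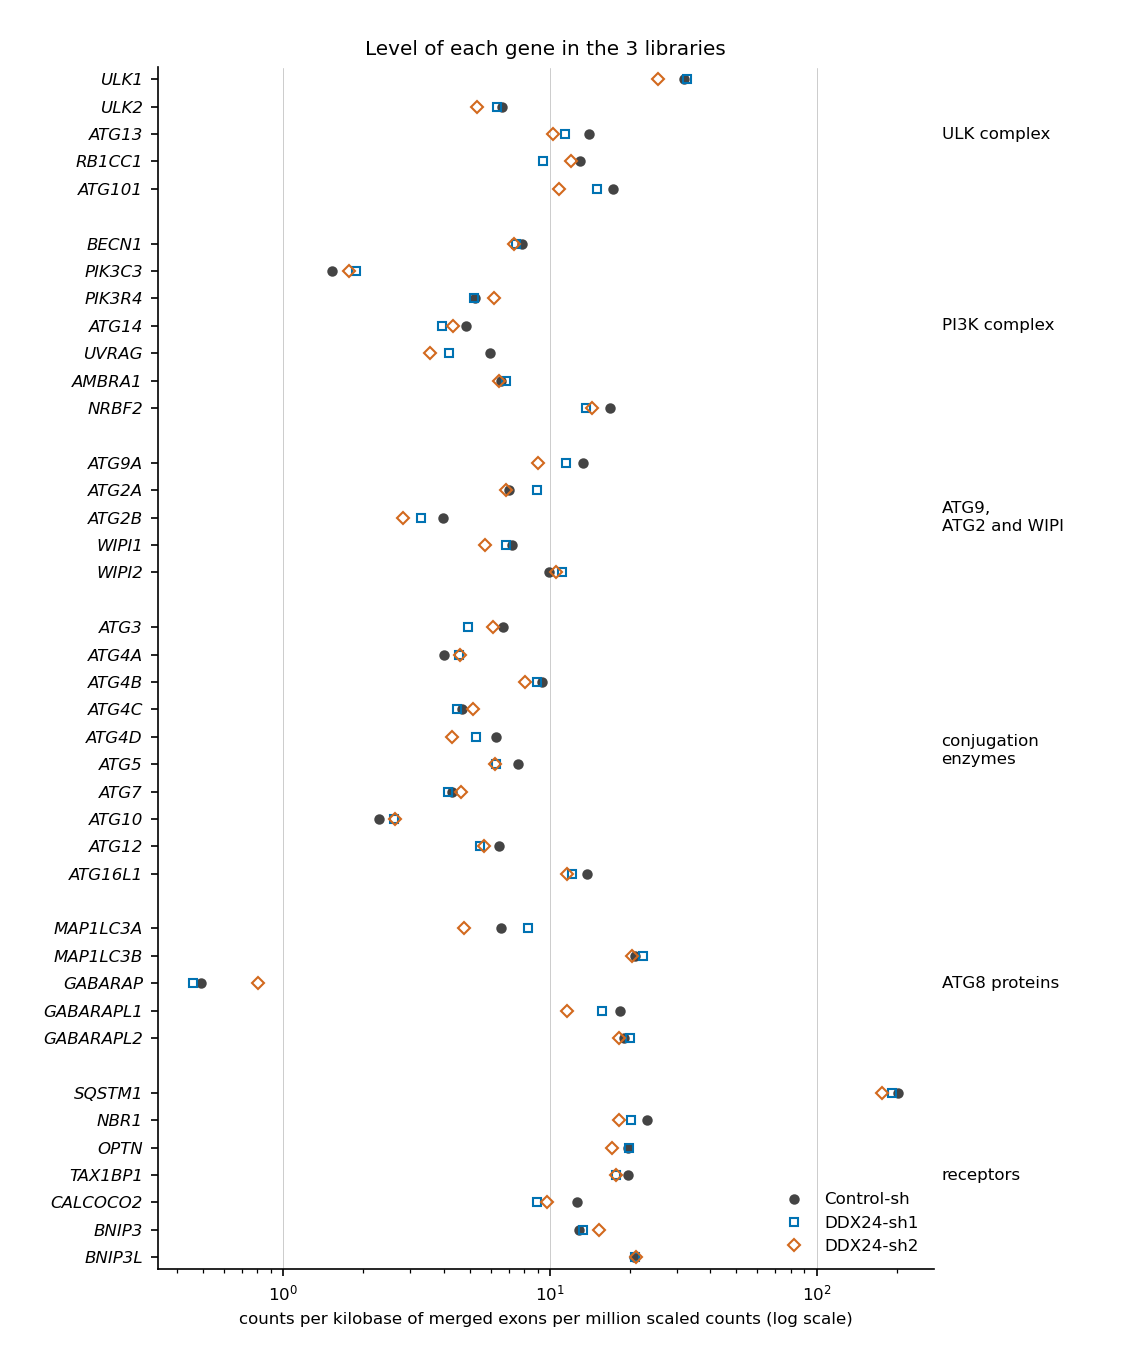
Level of each of the 39 genes in Control-sh (filled circles), DDX24-sh1 (squares) and DDX24-sh2 (diamonds), as CPM per kilobase of merged exon length on a log axis, 1 library per point. SQSTM1 lies highest, at 203 in Control-sh, and GABARAP lowest, at 0.491, and the 3 points of a gene mostly lie close together compared with the spread between genes.

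The receptors carry cargo to ATG8: SQSTM1, NBR1, OPTN, TAX1BP1 and CALCOCO2 (NDP52) recognise ubiquitin or galectin on it, and BNIP3 and BNIP3L (NIX) sit on mitochondria. SQSTM1 (chr5:179806398-179838078) was the most abundant of the 39 members per kilobase in every library, at 203, 192 and 175 CPM per kilobase, and made up 65.2%, 65.6% and 63.9% of the summed level of the 7 receptors. It had 26491, 26903 and 24207 counts, with ratios of -0.08 (-0.10 to -0.05) and -0.21 (-0.24 to -0.19). Counts this high make the interval narrow, so that even a level of 94.8% of the control in DDX24-sh1 lay outside counting error, and variation between cultures is not in that interval. Exons of SQSTM1 overlap MRNIP (1582 bases; 315, 319 and 481 counts) and MGAT4B (105 bases; 4148, 5798 and 4972 counts) on the opposite strand.

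CALCOCO2 (chr17:48830988-48866522) had 1796, 1363 and 1473 counts, with ratios of -0.50 (-0.60 to -0.40) and -0.37 (-0.47 to -0.27), the lowest of the receptors in both libraries, though in DDX24-sh2 its interval overlaps that of NBR1. NBR1 had 3314, 3103 and 2750 counts, with ratios of -0.19 (-0.27 to -0.12) and -0.35 (-0.42 to -0.28). TAX1BP1 had 3072, 2962 and 2939 counts, with ratios of -0.15 (-0.23 to -0.08) and -0.14 (-0.22 to -0.07). With SQSTM1 these 3 were below the control in both libraries by their intervals, 4 of the 7 receptors, where 20.6% of all genes were. OPTN had 1715, 1865 and 1586 counts, with ratios of 0.02 (-0.07 to 0.12) and -0.19 (-0.29 to -0.09), so only DDX24-sh2 lay below the control.

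The mitochondrial receptors lay at or above the control. BNIP3 had 1171, 1295 and 1466 counts, with ratios of 0.05 (-0.07 to 0.16) in DDX24-sh1 and 0.24 (0.13 to 0.36) in DDX24-sh2. BNIP3L had 1517, 1647 and 1634 counts, with ratios of 0.02 (-0.08 to 0.12) and 0.03 (-0.08 to 0.13). Mitochondrial genes also took their highest share of counts in DDX24-sh2, and the part of that in the BNIP3 value was not tested. BNIP3 is 97.4% identical over 657 bases to the pseudogene BNIP3P1, which had at most 2 counts.

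The other genes of the pathway, from lists outside the 39, are given for comparison. Of 66 such genes without transcription factors, 63 passed a mean of 1 CPM, and their median ratio came to 0.05 for DDX24-sh1 and -0.04 for DDX24-sh2. Both intervals lay above 0 for 8 of the 63 and below 0 for 9, where 14.0% and 20.6% of all genes did so, and for 1 and 15 of the 39 members. No difference between these lists was tested. Of those 63, the only gene at least 1.5-fold from the control in both libraries was ATG16L2, a paralogue of ATG16L1, with 59, 96 and 106 counts and ratios of 0.59 and 0.75, both intervals lying above 0. ATG16L1 lay below the control in the same libraries. MAP1LC3C, an LC3 gene under the mean of 1 CPM, had 16, 4 and 4 counts, with ratios of -1.67 (-4.14 to -0.47) and -1.65 (-4.12 to -0.45).

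Transcription factors known to control autophagy genes formed a further list of 13, with medians of -0.29 and -0.33. ATF4 (7178, 4137 and 3818 counts) was at -0.89 (-0.95 to -0.84) and -0.99 (-1.05 to -0.93), and its partner DDIT3 (898, 76 and 64 counts) at -3.63 (-4.02 to -3.32) and -3.85 (-4.28 to -3.52). NFE2L2, which encodes NRF2 (2910, 1713 and 1781 counts), was at -0.86 (-0.95 to -0.78) and -0.79 (-0.87 to -0.70). These 3 were the factors at least 1.5-fold lower in both libraries. Among the 39 members, 12 are known as ATF4 or DDIT3 targets, and their median ratio came to -0.08 for DDX24-sh1 and -0.11 for DDX24-sh2, with 5 below the control in both libraries by their intervals (ATG5, ATG12, ATG16L1, SQSTM1 and NBR1), beside 15 of all 39 members and 20.6% of all genes. SQSTM1, which is also known as an NRF2 target, was at 94.8% and 86.4% of the control, and NFE2L2 at 55.0% and 57.9%. A link between the levels of these genes was not tested.

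The NF-kB subunit genes RELA and NFKB1 lay at -0.26 (-0.35 to -0.17) and -0.38 (-0.47 to -0.29), and at -0.39 (-0.52 to -0.27) and -0.61 (-0.74 to -0.48). BECN1, known as an NF-kB target, was at -0.07 and -0.10, and a link between its level and theirs was not tested. TFEB, the master regulator of lysosomal and autophagy genes, had 90, 156 and 123 counts and ratios of 0.68 (0.31 to 1.08) and 0.36 (-0.03 to 0.78), and its relatives TFE3 and MITF were at -0.22 and -0.24 and at -0.29 and -0.33. FOXO1 was at -0.34 and -0.55, and E2F1 at -0.14 (-0.27 to -0.02) and -0.10 (-0.22 to 0.02). FOXO3 was at 0.16 (-0.04 to 0.36) and -0.19 (-0.40 to 0.03), with both intervals holding 0. HIF1A, an activator of BNIP3, was at 0.14 (0.11 to 0.17) and -0.27 (-0.31 to -0.24). RNA levels of a factor do not measure its activity.

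**Figure D3:**
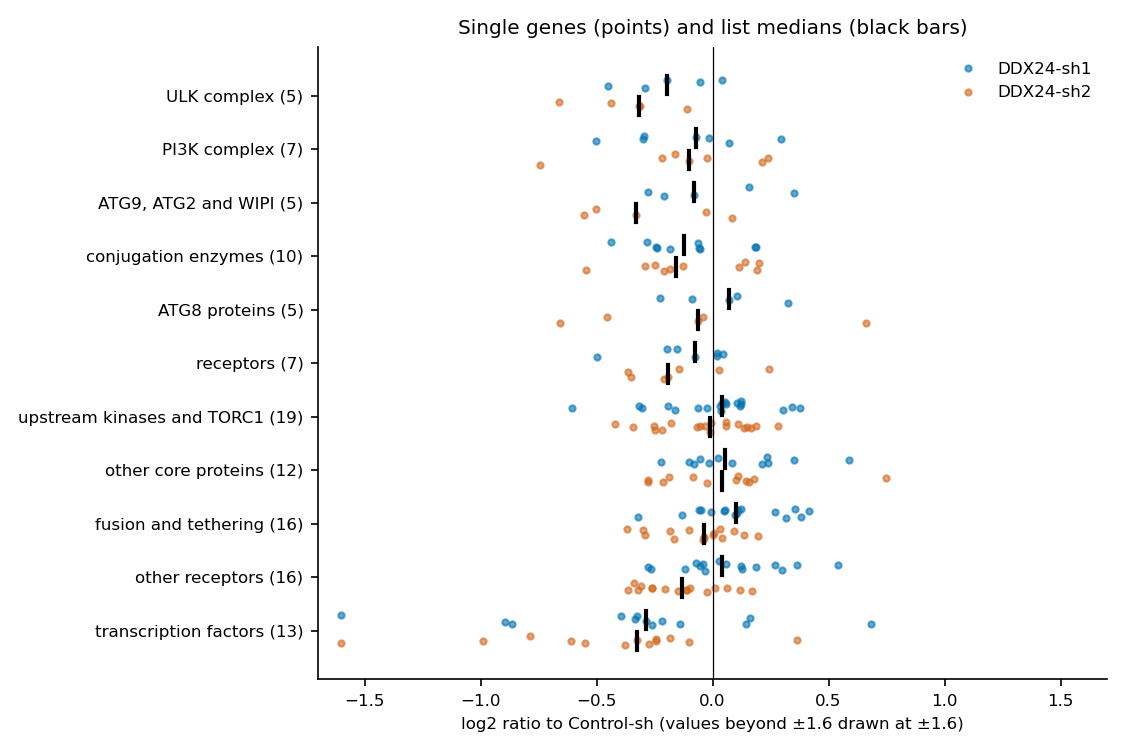
Log2 ratios to Control-sh of single genes (points) in DDX24-sh1 (blue) and DDX24-sh2 (orange), with black bars at the median, for the 6 groups of members and 5 lists of other autophagy genes (mean of 1 CPM or more); numbers of genes stand in parentheses and DDIT3, beyond the axis, is drawn at its edge. The group medians of the members lie between -0.33 and 0.07, and the transcription factors reach lower values than any group of members.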

How the data were processed

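RNA from A549 cells was sequenced in 3 libraries (Control-sh, DDX24-sh1 and DDX24-sh2, 1 per condition, 4 μg of total RNA each), grouped by their sample labels. The authors deposited raw counts per gene, whole numbers without normalization, and FPKM (scaled by length and library size) for the same 58735 genes. The submitters' processing notes name Bowtie2 2.0.6, TopHat2 2.0.9, Cufflinks 2.1.1 and Cuffdiff 2.1.1, with no roles; the counter, strandedness and treatment of multiply matching reads are not given in the sources used here. Starts, ends and merged exon lengths of all 58735 genes match GENCODE 29 (GRCh38). FPKM times length over count was constant within 1% for 100% of genes with at least 50 counts in the control, and in the shRNA libraries for 5.23% and 5.17% as labelled and 100% with labels exchanged.

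Ratios were computed here from the counts in R 4.3.3 with edgeR 4.0.16 (TMM scaling, log2 CPM, prior count of 2). With 1 library per condition, no model was fitted and no p-value given. Counts over genes took those at a mean of 1 CPM or more; a 1.5-fold threshold and exact 95% intervals (scipy 1.17.1, Python 3.11.15) served as descriptions, which at these totals cover counting error only. All 39 members are named, with DDX24, genes of other autophagy lists past 1.5-fold in both libraries, transcription factors, cell markers, and genes that overlap or copy a member. A gene covered by this rule is not reported here. Members and lists were chosen with earlier results of these data known. Motif matches were counted in RefSeq windows of 250 bases, and copies were sought with BLAST 2.17.0. The alternatives were DESeq2 1.42.0 size factors, total counts, TMM without mitochondrial genes, a prior count of 0.5, the FPKM as log2(FPKM + 0.1) with labels as given or exchanged, other filters and folds, and each shRNA library alone. The steps were tested on simulated data. Figures were drawn with matplotlib 3.10.9.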

Additional observations from a re-analysis of the deposited data

Results flagged for a closer look

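MAP1LC3A, which encodes an LC3 protein, lay above the control in DDX24-sh1, with a log2 ratio of 0.32 from 198 control and 266 shRNA counts, and below it in DDX24-sh2, at -0.46 from 152 counts. Each counting interval lay wholly on its own side of 0. The gene was singled out because the only library of each shRNA stood on an opposite side of the same control, and with 1 library per shRNA the difference was not tested.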

How the results depend on the processing

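Scaling by total counts, DESeq2 size factors, TMM without mitochondrial genes, a prior count of 0.5 and the FPKM with the shRNA labels exchanged left the group medians, the BECN1 ratios and the counts past 1.5-fold within their limits, and of the single ratios they moved 1, SQSTM1 in DDX24-sh2, to -0.18 with total counts. The median of all genes moved by less than 0.1 under each. With the FPKM labels as given, the shRNA libraries are exchanged. The medians in DDX24-sh1 and DDX24-sh2 then became -0.31 and -0.18 for the ULK complex. For ATG9, ATG2 and WIPI they became -0.32 and -0.0653, for the ATG8 proteins -0.0552 and 0.0832, and for the receptors -0.18 and -0.0645. Of the single ratios without BECN1, 48 moved, 27 stayed within their limits and 1 reversed. The reversed ratio was GABARAP in DDX24-sh2, which turned to -0.0716. Without GABARAP, which fails a mean of 10 CPM, the ATG8 median in DDX24-sh2 was -0.26 rather than -0.06. No member passed 1.5-fold in both libraries. At a looser fold limit 2 members, UVRAG and CALCOCO2, were lower in both libraries and none was higher in both. The share of all genes past that looser limit was not taken, so this count has no background to be set against. With DDX24-sh2 alone, 1 member was higher and 3 were lower. By intervals in both libraries, 1 was higher and 15 were lower. The intervals were made with TMM scaling only, and some end near 0, as for RB1CC1 in DDX24-sh2 with an upper limit of -0.01. No paired analysis was possible because each condition has 1 library. For the same reason no library could be left out, and every statement concerns these 3 libraries. Depth limits GABARAP most, whose 19 control counts allow a ratio from -0.14 to 1.61 in DDX24-sh2.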

Other observations

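Other autophagy genes act upstream and downstream of the 39 members. Of 19 genes of the upstream kinases and TORC1, STK11 (which encodes LKB1, a kinase upstream of AMPK) had 1118, 1518 and 1438 counts in the control, sh1 and sh2 libraries. Its log2 ratios were 0.34 (0.23 to 0.45) and 0.28 (0.17 to 0.40). Counts of RNA do not show whether these cells make working LKB1. RRAGA, a GTPase that recruits TORC1 to the lysosome, had 1877, 2611 and 2260 counts and ratios of 0.38 (0.29 to 0.46) and 0.19 (0.10 to 0.28), while its paralogue RRAGB had 227, 159 and 201 counts and ratios of -0.61 (-0.92 to -0.31) and -0.25 (-0.54 to 0.02). The AMPK catalytic subunits also stood on different sides. PRKAA1 was at 0.11 (9.5e-05 to 0.21), barely clear of 0, and 0.16 (0.06 to 0.27). PRKAA2 was at -0.32 (-0.50 to -0.13) and -0.42 (-0.61 to -0.24). In DDX24-sh1, 8 of 16 fusion and tethering genes had intervals above 0 and 1 below, and in DDX24-sh2, 1 and 5. Of all genes, 23.6% lay above and 29.5% below in DDX24-sh1, and 23.6% and 30.8% in DDX24-sh2. LAMP2, a lysosomal membrane protein needed for fusion, was the only fusion gene with intervals above 0 in both libraries. It had 2871, 4009 and 3482 counts and ratios of 0.38 (0.31 to 0.45) and 0.20 (0.13 to 0.27). By point ratios, 6 of the 16 lay above the control in both. These genes were chosen after their values were seen.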
